A study of Homo sapiens with 8 samples.

Results

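The Krüppel-like factors, or KLF proteins, were followed at the transcript level in BT549, an established line of human triple-negative breast cancer cells, when these were kept from attaching. Probe sets annotated to a single gene symbol were taken for KLF2, KLF3, KLF4, KLF5, KLF6, KLF7, KLF9, KLF10, KLF11 and KLF13, which gave 11 probe sets for these 10 genes out of 33297 probe sets on the array and 18417 genes tested. Total RNA was measured on 8 gene expression arrays. Of these, 4 were from cells attached to ordinary culture plastic and 4 from cells held in suspension by a poly-HEMA coating, which prevents adhesion to the plate. All cultures received RPMI medium with 10% serum and insulin, and the series describes the samples of a group as biological replicates, so the p-values speak to cultures of 1 cell line. Suspended cells were cultured for 24 h, whereas the labels give the attached cells both 24 h and 48 h, and if the longer time holds, culture time and attachment cannot be told apart.

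KLF proteins are transcription factors that bind GC-rich and CACCC-type DNA elements through zinc fingers at their carboxyl end, a part they share with the SP factors. Their amino-terminal parts differ, and through these some members recruit histone acetyltransferases and activate genes, while others recruit the CtBP or SIN3 corepressors. Several KLF genes are rapidly induced by serum, growth factors, TGF-beta, hormones or fluid shear, and family members are known for roles in cell cycle exit, differentiation and stemness in epithelia, the breast included.

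The KLF transcripts differed between suspended and attached cultures in both directions and by small steps. KLF9, KLF4 and KLF11 rose and KLF7 and KLF6 fell, at a limma p-value below 0.05 after Benjamini-Hochberg adjustment over all 18417 genes, which is the rule for a called gene throughout. KLF2, KLF3, KLF5, KLF10 and KLF13 did not pass. The 3 rises stand beside 10.4% of all genes called higher, and the 2 falls beside 10.2% called lower. In either direction 5 of 10 members were called, against 20.6% of all genes. Brighter genes were called more often. Among the 9208 genes above the median of gene means, fitted alone, 19.7% were called higher and 22.3% lower. All members but KLF9 and KLF13 were above that median. The shares of members and lists were not matched for signal, so they show no excess over genes of like signal. The members were also chosen with earlier results of these data known, so their shares describe the genes chosen and cannot show an excess. The calls over all genes were 1910 higher and 1877 lower, and 1340 and 2472 when arrays were centred on the median of the tested genes. An unadjusted limma p below 0.05 was found for 6 members and for 32.5% of all genes. The attached and suspended values did not overlap for 6 members, 4 of them higher and 2 lower in suspension, as for 24.8% of all genes (12.7% higher and 12.2% lower). The called steps were between 1.13-fold and 1.32-fold, and the median absolute log2 difference was 0.16 over the 10 members and 0.09 over all genes. No member reached a 2-fold change, which 0.342% of all genes did while also being called. Signals are on a log2 scale without a measure of background, so a fold is a ratio of signals and levels of different probe sets are not set against each other.

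The bases just before the gene start are shown for the members whose values the comparison turns on and whose start in the RefSeq promoter table (GRCh38.p14) is also the outermost start of the gene: KLF9 and KLF4, which rose together, KLF6, which fell, and KLF2, which had the smallest difference. For KLF7 and KLF11 the tabled start lies 7903 and 279 bases inside the outermost one, so theirs are not printed. Each run is the 250 bases before the start, 5′ to 3′ on the gene's strand, at chr9:70414658-70414907 (minus strand) for KLF9, chr9:107489770-107490019 (minus) for KLF4, chr10:3785210-3785459 (minus) for KLF6 and chr19:16324576-16324825 (plus) for KLF2. Capitals mark matches on either strand to CACCC, to the GC box GGGCGG, to the CCAAT box, to the FOXO motif TGTTTAC, to the AP-1 motif TGANTCA, to the E-box CACGTG, to the MEF2 motif or to the CArG box.
KLF9: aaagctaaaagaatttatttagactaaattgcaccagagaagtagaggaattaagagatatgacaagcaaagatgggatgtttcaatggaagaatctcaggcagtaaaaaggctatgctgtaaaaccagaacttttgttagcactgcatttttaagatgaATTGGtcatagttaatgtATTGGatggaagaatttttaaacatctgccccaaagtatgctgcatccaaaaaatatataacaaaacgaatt
KLF4: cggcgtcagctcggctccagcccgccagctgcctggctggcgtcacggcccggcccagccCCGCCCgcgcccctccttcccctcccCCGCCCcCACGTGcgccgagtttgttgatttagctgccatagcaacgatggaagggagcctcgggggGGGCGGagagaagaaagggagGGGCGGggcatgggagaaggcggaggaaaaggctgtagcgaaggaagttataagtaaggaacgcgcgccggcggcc
KLF6: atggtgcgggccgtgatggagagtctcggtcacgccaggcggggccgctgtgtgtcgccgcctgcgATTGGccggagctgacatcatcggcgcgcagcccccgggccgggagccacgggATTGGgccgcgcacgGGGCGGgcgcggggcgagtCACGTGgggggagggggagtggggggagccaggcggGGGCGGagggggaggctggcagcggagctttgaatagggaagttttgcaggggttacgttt
KLF2: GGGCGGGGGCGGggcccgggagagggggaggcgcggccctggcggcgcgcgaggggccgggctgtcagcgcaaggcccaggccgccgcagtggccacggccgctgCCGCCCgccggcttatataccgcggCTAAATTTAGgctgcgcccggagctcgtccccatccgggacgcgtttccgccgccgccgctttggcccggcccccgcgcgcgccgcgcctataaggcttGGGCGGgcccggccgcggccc

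The windows of KLF9 and KLF4 were unlike, and the part of any window in the differences was not tested. The KLF9 window was 32.4% G or C and held 2 CCAAT matches and no GC box, whereas that of KLF4 was 69.2% G or C and held 4 GC boxes, an E-box and no CCAAT. KLF6 held 2 GC boxes, 2 CCAAT matches and an E-box at 72.4% G or C. KLF2, at 80.0% G or C, held 4 GC boxes and 1 MEF2 match. Among 14239 tested genes with a window, 57.5% held a GC box, 34.4% a CCAAT match, 7.86% this E-box and 1.98% a MEF2 match. The median share of G or C was 62.8% over these windows (22.8% to 96.4%) and 70.8% over the 8 members with a window. Motif counts were not matched for this share, so they show no excess over like windows. CACCC, which 57.8% of all windows held, was in 3 of the 8 members with a window. Across those 8 members GC boxes were in 5, CCAAT matches in 3 and the E-box in 3, and only KLF2 had a MEF2 match. These counts include the windows of KLF7 and KLF11 that begin inside the gene, of which KLF11 held GC boxes and an E-box and KLF7 held CACCC. In KLF13, 1 GC box overlapped its CACCC. FOXO, AP-1 and CArG matches (2.07%, 4.91% and 1.17% of all windows) were in none of the 8. A match is only a run of letters and says nothing of binding.

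**Figure D1:**
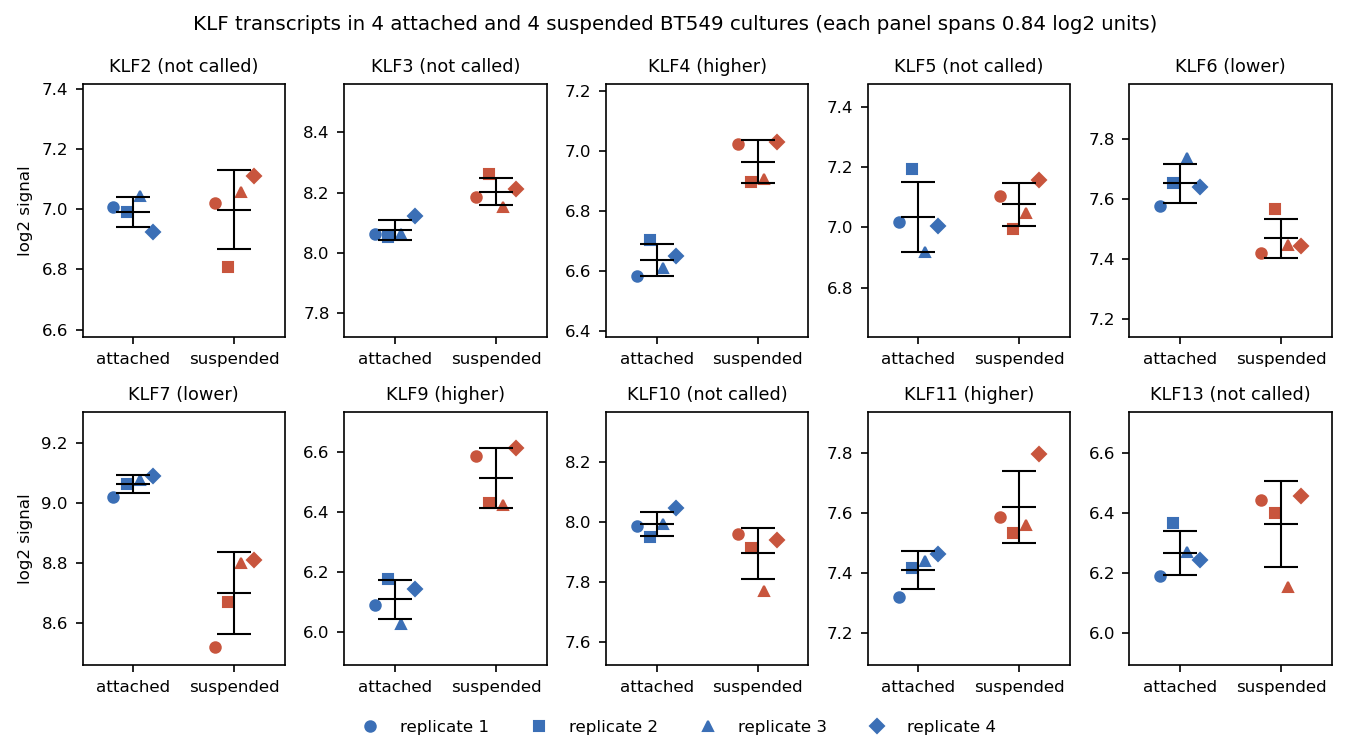
Log2 signal of each KLF gene (vertical axis, each panel spanning 0.84 log2 units) in the 4 attached and 4 suspended arrays (points, with the mean and SD as bars). Marker shape gives the replicate number, which was not taken to pair the samples. The suspended points of KLF4 and KLF9 all lie above the attached ones and those of KLF7 all below, while the groups overlap for KLF2, KLF5, KLF10 and KLF13.

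KLF9, a factor induced by glucocorticoids and thyroid hormone in several tissues, rose furthest. Its log2 signal (probe set 8161648) was 6.09, 6.18, 6.03 and 6.14 in attached replicates 1 to 4 and 6.59, 6.43, 6.42 and 6.61 in suspended replicates 1 to 4. Every suspended culture lay above every attached one, with a gap of 0.25 between the groups. The log2 difference was 0.40 (SE 0.059, 95% confidence interval 0.27 to 0.53, n = 4 per group, limma adjusted p = 0.000555), a 1.32-fold rise. It ranked 867th by size among the 18417 genes, and the call held with each array left out in turn, at 0.37 to 0.43.

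KLF4, one of the factors used to reprogramme cells to pluripotency and known for halting the cell cycle in differentiating epithelia, rose by a similar step. On the log2 scale probe set 8163002 read 6.58, 6.70, 6.61 and 6.65 in the attached cultures and 7.02, 6.90, 6.91 and 7.03 in the suspended ones. The groups did not overlap and were 0.19 apart. KLF4 had a log2 difference of 0.33 (SE 0.052, 95% confidence interval 0.21 to 0.44, limma adjusted p = 0.000903), a rise of 25.4%, and with 1 array left out in turn it stayed called at 0.31 to 0.35.

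Within suspension KLF4 and KLF9 split the arrays alike. Replicates 1 and 4 were the high ones and replicates 2 and 3 the low ones for both genes. This was not particular to them: KLF5, KLF10, KLF11 and KLF13 showed the same split. KLF6 showed the reverse, and KLF2, KLF3 and KLF7 neither. Suspended replicates 1 and 4 were also separated from 2 and 3 by the second principal component of all tested genes, which held 12.2% of the variance. It placed suspended replicates 2 and 3 at 8.88 and 8.52 and replicates 1 and 4 at −3.21 and −9.71. The first component, which held 56.5% of the variance and separated attached from suspended arrays, ordered them likewise. On it suspended replicates 1 and 4 lay at 15.08 and 17.45 and replicates 2 and 3 at 10.09 and 10.87. The part of these components in the rises was not tested. Over the 8 arrays the genes whose pattern was most like that of KLF9 among 18416 others were the calcium channel subunit gene ORAI3 (Pearson r = 0.994), the protocadherin-like FAT1 (r = 0.993) and KLF4 (r = 0.992). These correlations describe 8 arrays in separate groups. ORAI3 and FAT1 also rose, by 0.65 and 0.22 in log2 (limma adjusted p = 0.000138 and 0.00895). They were picked for a pattern like that of KLF9, so their rise follows from the choice and is no separate result.

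KLF11, which like KLF10 was first described as an early gene induced by TGF-beta and which represses through SIN3, rose by a smaller step. Probe set 8040211 gave log2 signals of 7.32, 7.42, 7.44 and 7.46 in the attached and 7.59, 7.53, 7.56 and 7.80 in the suspended cultures. The groups were 0.07 apart, and suspended replicate 4 was the highest. The log2 difference was 0.21 (SE 0.064, 95% confidence interval 0.07 to 0.35, limma adjusted p = 0.0383). This call was lost without any 1 of the attached replicates and without suspended replicate 1 or 4; over the 8 leave-out fits the difference lay between 0.15 and 0.24 and the limma adjusted p reached 0.104. It was also lost when arrays were centred on the median of all probe sets (0.19, limma adjusted p = 0.0687) or of the tested genes (0.16, limma adjusted p = 0.0802).

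KLF7, a broadly expressed member needed for axon growth in neurons, fell the furthest. Its log2 signal (probe set 8058477) was 9.02, 9.07, 9.08 and 9.09 in the attached cultures and 8.52, 8.67, 8.80 and 8.81 in the suspended ones. All suspended values were below all attached values, by at least 0.21, and they were more spread out, with an SD of 0.14 against 0.03. In the suspended cultures KLF7 was lower by a log2 difference of −0.36 (SE 0.065, 95% confidence interval −0.50 to −0.22, limma adjusted p = 0.00201), a 1.28-fold fall. This call held with each array left out, at −0.40 to −0.30. The genes with the most similar pattern over the 8 arrays were the RNA-binding protein gene HNRNPAB (Pearson r = 0.996), RND3 (r = 0.996) and RINT1 (r = 0.991), which fell by 0.24, 0.50 and 0.21 in log2 (limma adjusted p = 0.00769, 0.00102 and 0.0199). These genes were picked for a pattern like that of KLF7, so their falls follow from the choice and are no separate result. The RINT1 call needed attached replicates 3 and 4 (−0.23 to −0.16 over the leave-out fits). HNRNPAB was not called after quantile normalization of the deposited values.

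KLF6, an immediate-early member that has been described as a growth suppressor, fell by a smaller step. The log2 signals of probe set 7931810 were 7.58, 7.65, 7.74 and 7.64 in the attached and 7.42, 7.57, 7.45 and 7.44 in the suspended cultures. The groups were separate by only 0.01, between attached replicate 1 and suspended replicate 2. The log2 difference was −0.18 (SE 0.053, 95% confidence interval −0.30 to −0.07, limma adjusted p = 0.0298). The call held without attached replicate 1 or suspended replicate 2 and was lost without any other array, over a range of −0.21 to −0.15 and up to a limma adjusted p of 0.0944.

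Among the 5 members that were not called, KLF3, a repressor that works through CtBP, came nearest. Its log2 signal (probe set 8094599) was 8.06, 8.05, 8.06 and 8.12 in attached and 8.19, 8.26, 8.15 and 8.21 in suspended cultures. The groups did not overlap, but the log2 difference of 0.13 (SE 0.045, 95% confidence interval 0.03 to 0.23) had a limma adjusted p of 0.0698. KLF3 was called higher after quantile normalization of the deposited values or with a trended robust prior. It was also called with a filter at the 25th percentile or at the median of gene means, at limma adjusted p down to 0.0236.

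KLF10, the relative of KLF11, had a log2 difference of −0.10 (SE 0.053, 95% confidence interval −0.21 to 0.02, limma adjusted p = 0.232). Log2 signals (probe set 8152215) were 7.99, 7.95, 7.99 and 8.05 attached and 7.96, 7.91, 7.77 and 7.94 suspended, with all suspended values below the attached mean and the ranges overlapping. KLF5, which favours proliferation in epithelia, gave 7.02, 7.20, 6.92 and 7.01 attached and 7.10, 6.99, 7.05 and 7.16 suspended (probe set 7969414). The suspended range lay inside the attached one, and the log2 difference of 0.04 had a 95% confidence interval of −0.10 to 0.18 (limma adjusted p = 0.691).

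KLF2, known for its induction by shear flow in endothelium and for keeping lymphocytes quiescent, had the smallest difference of the 10. Its log2 signal (probe set 8026564) was 7.01, 6.99, 7.04 and 6.93 attached and 7.02, 6.81, 7.06 and 7.11 suspended. Suspended replicate 2 was the lowest and replicate 4 the highest of the 8 arrays. The log2 difference was 0.01 (95% confidence interval −0.14 to 0.15, limma adjusted p = 0.956) and 0.07 without suspended replicate 2 (limma adjusted p = 0.372).

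KLF13, which activates the chemokine gene CCL5 in T cells, was the only member with more than 1 probe set. The brighter one (probe set 7982326) gave 6.19, 6.36, 6.27 and 6.24 attached and 6.44, 6.40, 6.15 and 6.46 suspended. Of the suspended values, 3 lay above all attached ones and replicate 3 below all of them. The log2 difference was 0.10 (95% confidence interval −0.06 to 0.25, limma adjusted p = 0.387) and 0.17 without suspended replicate 3 (limma adjusted p = 0.0630). The dimmer probe set, 7982333, differed by 0.06 (95% confidence interval −0.07 to 0.20, limma adjusted p = 0.524 over 19460 probe sets).

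The replicates of the KLF genes were on the whole less alike in suspension. The SD over 4 arrays was larger in the suspended group for 8 of 10 members, KLF5 and KLF6 being the exceptions, and the median SD was 0.09 suspended and 0.06 attached. Over all genes the SD was larger in suspension for 60.2%, with medians of 0.09 and 0.07.

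**Figure D2:**
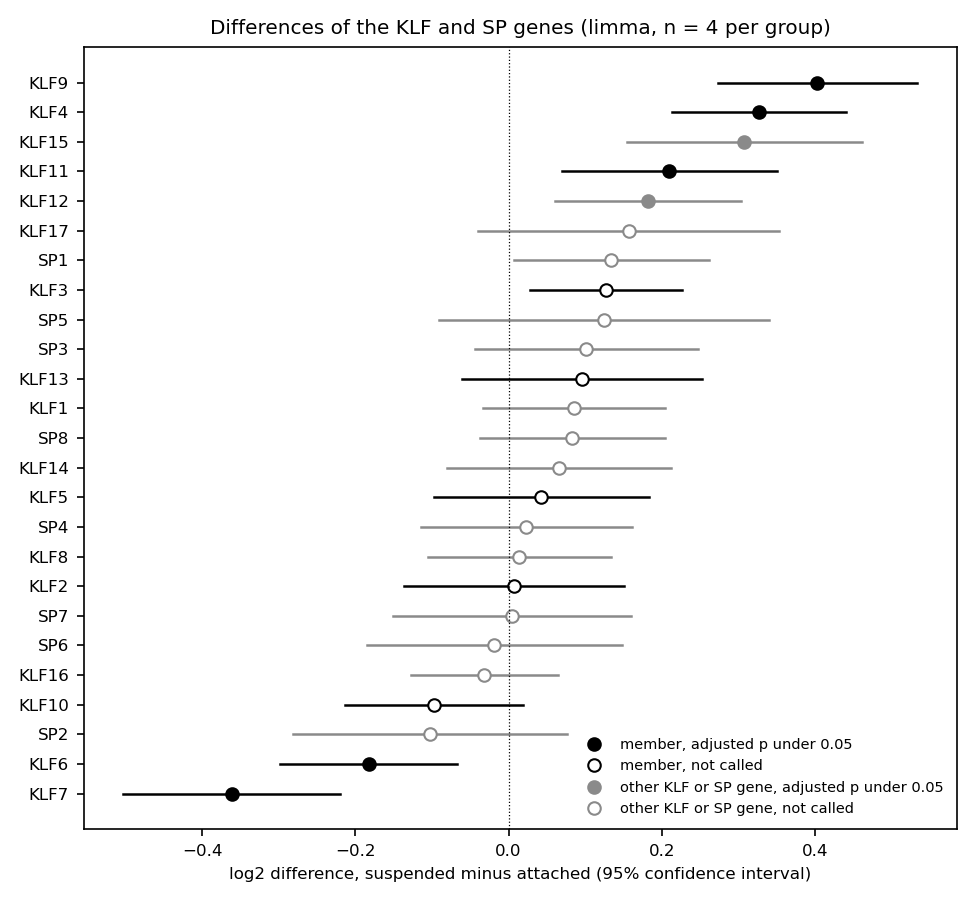
Log2 difference of 25 KLF and SP genes (horizontal axis, suspended minus attached, with 95% confidence intervals; filled points passed adjusted p below 0.05 by limma, black for the 10 members and grey for other family genes). Of the called genes, KLF9, KLF4, KLF15, KLF11 and KLF12 lie to the right of 0 and KLF6 and KLF7 to the left. Called or not, 19 of the 25 lie to the right, as do 10582 of all 18417 genes.

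Of 17 other KLF and SP family genes 15 were tested, and KLF18 and SP9 are not analysed here. KLF15, a glucocorticoid-induced regulator of metabolism, and KLF12, a CtBP-dependent repressor, rose by 0.31 and 0.18 in log2 (limma adjusted p = 0.00852 and 0.0379), and 0 fell. The share called was 13.3%, below the 20.6% of all genes, and 3 of the 15 had an unadjusted limma p below 0.05, as had 32.5% of all genes. KLF15 had no overlap between groups and stayed called without any 1 array, at 0.25 to 0.37. For KLF12 the groups overlapped, and the call held only where attached replicate 2 or suspended replicate 1 was the array left out (0.16 to 0.22 over the 8 fits); it was lost under either centring. The 13 genes not called, which include SP1, SP3 and the other measured SP genes, had differences between −0.10 and 0.16. The median difference of this list was 0.08, against 0.02 over all genes.

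**Figure D3:**
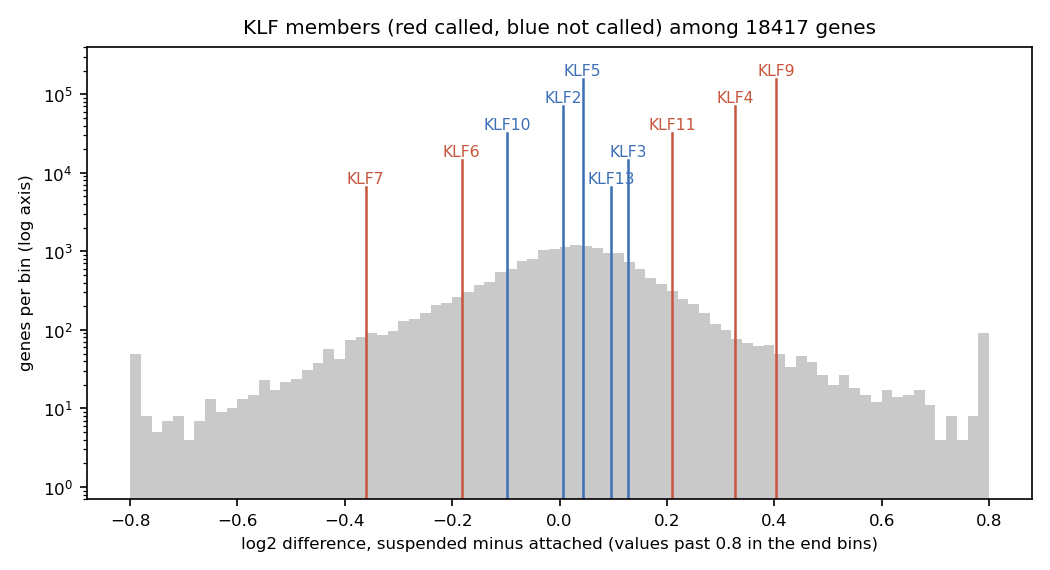
Distribution of the log2 difference (horizontal axis, suspended minus attached; values past 0.8 are in the end bins) over 18417 genes (grey bars, number of genes on a log axis), with the 10 KLF members as lines, red where called and blue where not. KLF9, KLF4 and KLF11 stand at percentiles 97.4, 96.1 and 90.6 of all differences and KLF7 and KLF6 at 3.01 and 10.4.

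Among the listed genes known to regulate KLF genes, more rose than fell. Of 19 measured 9 rose and 2 fell (57.9%, against 20.6% of all genes), with a median log2 difference of 0.27. This list and the other lists were chosen with earlier results of these data known. Their shares therefore describe the genes chosen and cannot show an excess over all genes. MEF2A, a factor through which the kinase ERK5 is known to activate KLF2 and KLF4, rose by 0.82 (limma adjusted p = 2.04e-06), the YAP-related coactivator WWTR1 by 0.73 (limma adjusted p = 3.23e-06) and FOXO1, known to drive KLF2 in lymphocytes, by 0.55 (limma adjusted p = 1.04e-05). On the TGF-beta route that induces KLF10 and KLF11, the receptors TGFBR1 and TGFBR2 rose by 0.39 and 0.37 and SMAD3 by 0.43. The other called genes, named after their values were seen, were MEF2D (0.37), the kinase MAP3K3 upstream of ERK5 (0.32) and the clock gene BMAL1 (0.27) as rises, and its partner CLOCK (−0.22) and the glucocorticoid receptor NR3C1 (−0.19), known to induce KLF9, as falls. With 1 array left out, BMAL1 stayed called where that was attached replicate 1 or suspended replicate 2 or 4 and was lost for the other 5 (0.23 to 0.34). CLOCK stayed called where it was attached replicate 2 or suspended replicate 2 or 3 and was lost for the other 5 (−0.27 to −0.17). NR3C1 was not called after quantile normalization of the deposited values. Other genes of the same routes were among the 8 not called. ERK5 itself (MAPK7) differed by −0.0032 and its kinase MAP2K5 by −0.16, SMAD2 by 0.08 and SMAD4 by 0.03, and YAP1 by 0.03. MEF2C (0.31), EGR1 (0.18) and FOXO3 (0.04) did not pass either.

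Of 17 measured cofactors and ubiquitin ligases of KLF proteins 4 rose and 1 fell (29.4%, against 20.6% of all genes), with a median log2 difference of 0.10, and BAP1 is not analysed here. The acetyltransferases KAT2B and EP300 rose by 0.98 and 0.31 (limma adjusted p = 1.76e-07 and 0.00160), the corepressor CTBP2 by 0.27 (limma adjusted p = 0.00177) and VHL, which targets KLF4 for degradation, by 0.22 (limma adjusted p = 0.0121). PRMT5, an arginine methyltransferase reported to stabilise KLF4, fell by 0.22 (limma adjusted p = 0.00267). These 5 stayed called without any 1 array. The 12 not called, which include SIN3A, SIN3B, CTBP1 and the ligases WWP1 and FBXW7, had differences between −0.07 and 0.19.

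Genes reported as direct targets of 1 or more KLF proteins were divided. Of 21 measured 6 rose and 4 fell (47.6%, against 20.6% of all genes), with a median log2 difference near that of all genes (−0.00024 and 0.02). The cell cycle inhibitor CDKN1B rose by 0.54 (limma adjusted p = 8.20e-06), the lectin LGALS3, which KLF3 represses, by 0.51 (limma adjusted p = 0.000256), TGFB1 by 0.39 (limma adjusted p = 0.000619) and SMAD7, which KLF10 represses, by 0.34 (limma adjusted p = 0.000977). The cyclin gene CCND1 fell by 0.42 (limma adjusted p = 0.000208) and S1PR1, a KLF2 target in lymphocytes, by 0.26 (limma adjusted p = 0.00227). The remaining calls, named after their values were seen, were CDKN1A (0.41) and COL1A1 (0.22), which rose, and TXNRD2 (−0.21) and CCNB1 (−0.14), which fell. The COL1A1 call needed attached replicates 1, 3 and 4 (0.16 to 0.25). That of CCNB1 was lost without any 1 of the 8 arrays (−0.15 to −0.12). It was also lost after quantile normalization of the deposited values (CCNB1 log2 difference −0.08, limma adjusted p = 0.293).

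**Figure D4:**
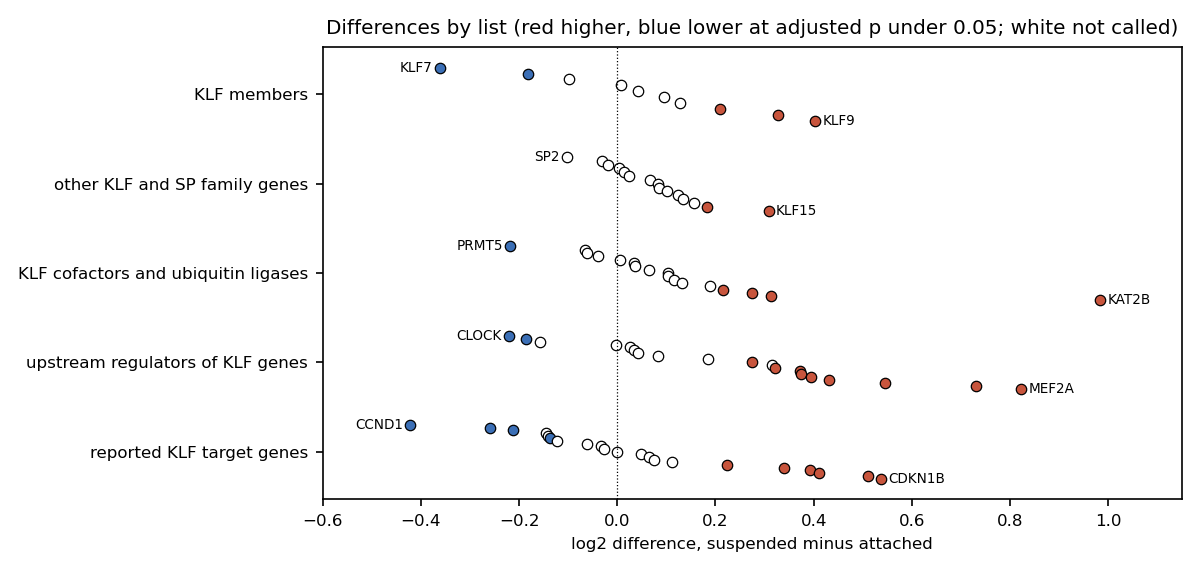
Log2 difference (horizontal axis, suspended minus attached) of each measured gene (points) in the KLF members and the 4 other lists (rows), red where called higher, blue where called lower and white where not called, with the lowest and highest gene of each row named. Points past 0.5 appear among regulators, cofactors and targets, with KAT2B at 0.98 as the largest, and not among the KLF members, whose largest is KLF9 at 0.40.

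Cell type markers are given by the percentile of their mean signal among all genes, which ranks unlike probe sets and so shows neither presence nor absence. All 5 mesenchymal markers (VIM, FN1, CDH2, SPARC and ZEB1) lay between percentiles 88.7 and 99.6 of gene means, and SPARC and ZEB1 rose while CDH2 fell. The epithelial markers were spread out, with CDH1 at percentile 6.96, EPCAM at 27.7, KRT8 at 49.7, KRT19 at 55.5 and KRT18 at 81.8. Of the luminal and receptor markers PGR lay at 7.34, ESR1 at 21.0, FOXA1 at 34.4, ERBB2 at 71.7 and GATA3 at 85.5. By limma 0 of 5 epithelial markers were called, against 20.6% of all genes, and 0 of 5 had an unadjusted p below 0.05, against 32.5%. With 5 genes these counts do not show that the markers were unchanged. The 95% confidence interval of the EPCAM log2 difference was −0.55 to 0.31. The luminal factors GATA3 and FOXA1 rose by 0.49 and 0.18, the latter a call held in only 1 of 8 leave-out fits. In such bulk samples fewer cells of a kind and less RNA per cell cannot be told apart. KLF2 and KLF4 are also endothelial genes: of 5 endothelial markers (PECAM1, CDH5, VWF, TEK and CLDN5) 3 lay below the 25th percentile of gene means and all below the median. Their summed log2 signal, which is not an amount of RNA, was 26.3 to 26.8 in attached and 26.4 to 27.4 in suspended arrays. CLDN5 alone of them was called (0.26, limma adjusted p = 0.0448), a call lost without any 1 array other than suspended replicate 2. Of the 4 measured leukocyte markers PTPRC lay at percentile 3.91, CD3E at 13.9, CD14 at 32.3 and CD68 at 82.9. CD14 rose, in only 1 of 8 leave-out fits, and CD68 fell. The part of these markers in the KLF differences was not tested. Array medians lay between 6.02 and 6.07, arrays correlated at r = 0.993 or more within groups and 0.987 to 0.994 between them, no 2 arrays were identical, and the number of arrays limits the precision.

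**Figure D5:**
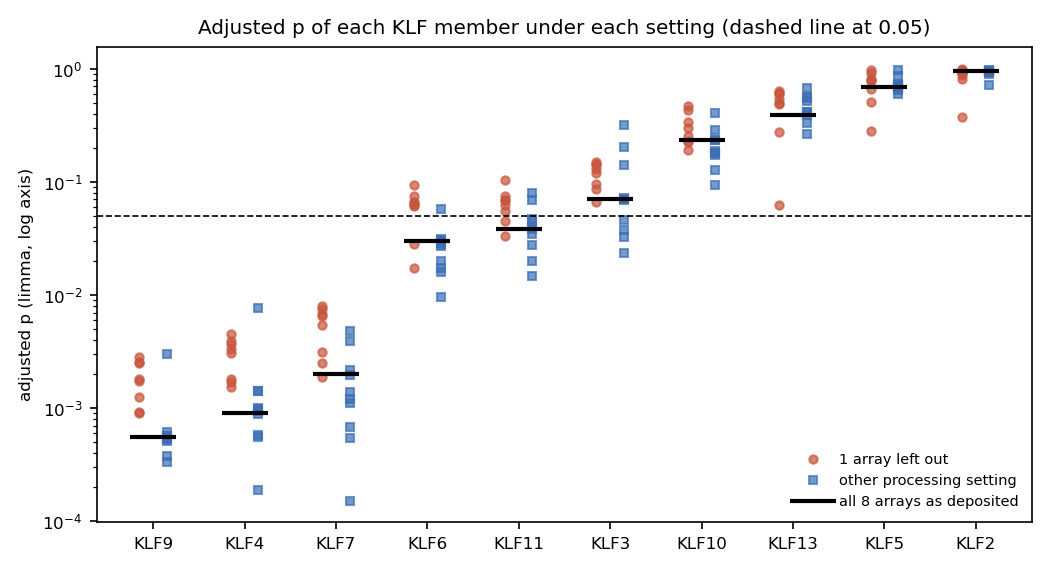
Limma adjusted p of each KLF member (vertical axis, log scale; dashed line at 0.05) with all 8 arrays as deposited (black bars), with 1 array left out in turn (red circles) and under other processing settings (blue squares). KLF9, KLF4 and KLF7 stay below the line throughout, KLF6, KLF11 and KLF3 have points on both sides, and the other members stay above it.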

How the data were processed

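Total RNA from 4 attached and 4 suspended BT549 cultures was labelled with biotin and hybridised to gene-level arrays; the labelling kit the labels name is one for small RNA, so the labelling stays uncertain. The log2 values are those the authors deposited, 33297 probe sets by 8 arrays. Their range, up to 13.7 per array, was read as a log2 scale. Partek is named in the submitters' processing notes. How background, normalization and summarisation were handled was not given in sources used here.

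Platform annotation gave 19460 probe sets 1 symbol, 1754 several and 12083 none. The first were tested, with 19429 matched to RefSeq (GRCh38.p14) by gene ID. Where probe sets shared a gene (769 genes), the brightest on average was used. The groups were compared with limma 3.58.1 under R 4.3.3, using lmFit, then eBayes, with two-sided p-values adjusted by Benjamini-Hochberg over 18417 genes, a threshold of 0.05 and no covariate. The script was tested on simulated data. Differences are suspended minus attached and SD is over 4 arrays. Plots used Python 3.11.15 and matplotlib 3.10.9.

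The members and lists were chosen with earlier results of these data known. Named by rule were all members, list genes called (the 6 with the smallest adjusted p where over 5 were called), the 3 genes most correlated with the member that rose and the one that fell furthest, and the markers. Alternatives covered normalization, low-signal filters, probe set choice, variance prior, array weights, replicate number as a block and leaving out each array. Proteins were not compared.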

Additional observations from a re-analysis of the deposited data

Results flagged for a closer look

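Of 76 groups of 4 arrays examined over the KLF members and the called genes of the other lists, 2 had 1 array far from the other 3, where chance flags about 1 group in 20, and none of the 20 member groups did. CDKN1A was 7.47 in suspended replicate 2 and 7.19 to 7.23 in the other suspended arrays, and without that array the CDKN1A log2 difference was 0.35 (limma adjusted p = 0.00630). CLOCK was 8.41 in attached replicate 4 and 8.27 to 8.30 in the other attached arrays, and without that array the CLOCK log2 difference was −0.19 and no longer called (limma adjusted p = 0.0980).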

How the results depend on the processing

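KLF9, KLF4 and KLF7 kept direction and call under every setting in which they were fitted; KLF9, like KLF13, was not fitted with the filter at the median. Leaving out 1 array gave 2 to 3 members called higher, 1 to 2 lower, and 1 to 2 of the other KLF and SP genes. Attached and suspended arrays of the same number showed no clear shared deviation from their group means. Same-numbered deviations correlated at −0.198 to 0.0416, and 0 of 8 arrays correlated best with their own number. These correlations cannot show whether the cultures were set up in pairs. With replicate number as a block 1 member was called lower, since KLF6 was lost (limma adjusted p = 0.0580), and 1 of the other KLF and SP genes was called. The block also ended the calls of KLF12, COL1A1, CLOCK and CCNB1 and of the markers FOXA1, CLDN5 and CD14. That list also had 1 call under centring on the median of all probe sets or of the tested genes, and with the filter at the median, which KLF15 did not pass. Centring on the tested genes, added after seeing the data, changed the split of all calls from 1910 higher and 1877 lower to 1340 and 2472. The KLF2 log2 difference, never called, changed sign under these centrings (−0.016 and −0.039), with array weights (−0.0110) and within the leave-out fits (−0.030 to 0.070). The KLF5 log2 difference did so when centred on the tested genes (−0.0031). The cause of these changes was not tested. Without a background measure, low signals carry no statement of presence.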
